A study of Homo sapiens with 24 samples.

Results

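The factors of nonsense-mediated mRNA decay (NMD) were examined in the splicing profiles of HCT-116 cells, an established colorectal carcinoma line. The set comprised 9 genes, UPF1, UPF2, UPF3A, UPF3B, SMG1, SMG5, SMG6, SMG8 and SMG9. Every splice junction or exon-intron boundary listed on the strand and within the GRCh37 span of one of these genes was taken, which gave 2053 of the 1830076 rows in the deposited tables, 663 of them boundaries and 1390 spliced junctions. The rows were picked by gene symbol and position only, but the genes were chosen with earlier results of these data known. The cells expressed either wild-type PHF5A (WT) or PHF5A carrying the Y36C substitution from an introduced gene in the parental line, and were given DMSO or the SF3b-binding splicing modulator E7107. All groups shared the parental line and poly(A) selection. The groups were named WT DMSO and WT E7107, and likewise Y36C DMSO and Y36C E7107, with 6 samples in each of the 4 and 24 in all. According to the methods each treatment was done 6 times over and lasted 6 h before lysis, and the labels give no dose. Neither source says whether the 6 came from separate cultures, so the tests below measure the spread between treatments that may share a culture. Neither the cell line nor the introduced allele could be checked, because the tables hold no expression levels or base calls.

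NMD degrades mRNAs whose reading frame ends early. UPF1 is an RNA helicase that is recruited where translation stops. UPF2 and either UPF3B or its paralogue UPF3A connect it to the exon junction complex, the mark that splicing leaves upstream of exon junctions. The kinase SMG1, held in check by SMG8 and SMG9, phosphorylates UPF1, after which SMG6 cuts the mRNA near the stop codon, and SMG5 helps to bring in deadenylation and decapping. The mRNAs of several of these factors are NMD targets themselves, and an intron left in a transcript usually brings an early stop codon.

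The measurement was percent spliced in (PSI), the share of reads at a splice site that follow a given junction, from 0 to 100%. Reads running from an exon straight into its intron formed the boundary row of that splice site, so the boundary PSI was taken as retention. Where a longer form of an exon is used, its reads also cross the boundary of the shorter form. Boundary PSI at such sites, and gene means that include them, are not retention alone. A spliced junction was listed once at its donor (5′ splice site) and once at its acceptor (3′ splice site), and these ends were counted as separate rows. The read depth behind each PSI is unknown, since the tables give percentages without counts. The number of splice sites with any reads was 281734 to 284117 in WT E7107, below the 329014 to 340662 of the other groups. Among the boundary rows of the NMD factors, 360 had reads in all WT E7107 samples, against 382 in WT DMSO, 381 in Y36C DMSO and 375 in Y36C E7107. PSI is a share within a site and gives no level of a transcript, so fewer cells and less RNA per cell cannot be told apart here. Reads of other genes on the same strand within a span enter too: the SMG6 span holds other small genes and SMG8 overlaps a neighbour.

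To place each factor on a single scale, boundary PSI was averaged over all boundaries of a gene that had reads in all 24 samples, from 6 boundaries in SMG8 to 127 in SMG1. Under E7107 this mean rose in WT cells for UPF1, UPF2, UPF3B, SMG1, SMG8, SMG9, SMG5 and SMG6, 8 of the 9 factors, and fell for UPF3A, whose groups overlapped (limma, adjusted p of 0.05 or less over 9895 protein-coding genes). Of all these genes 72.5% rose and 7.67% fell, so a rise was also the common outcome elsewhere. In Y36C cells 8 of the 9 factors rose, all but UPF2, where 48.3% of all genes rose and 0.859% fell. The sizes were far apart: the changes in WT lay between -2.56 and 44.8 percentage points and those in Y36C between 0.0549 and 7.53 points. The change differed between the genotypes for all 9 factors, being smaller in Y36C for 8 and larger for UPF3A (interaction term of the limma fit, where 60.8% of all genes had a lower and 13.6% a higher change in Y36C).

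**Figure D1:**
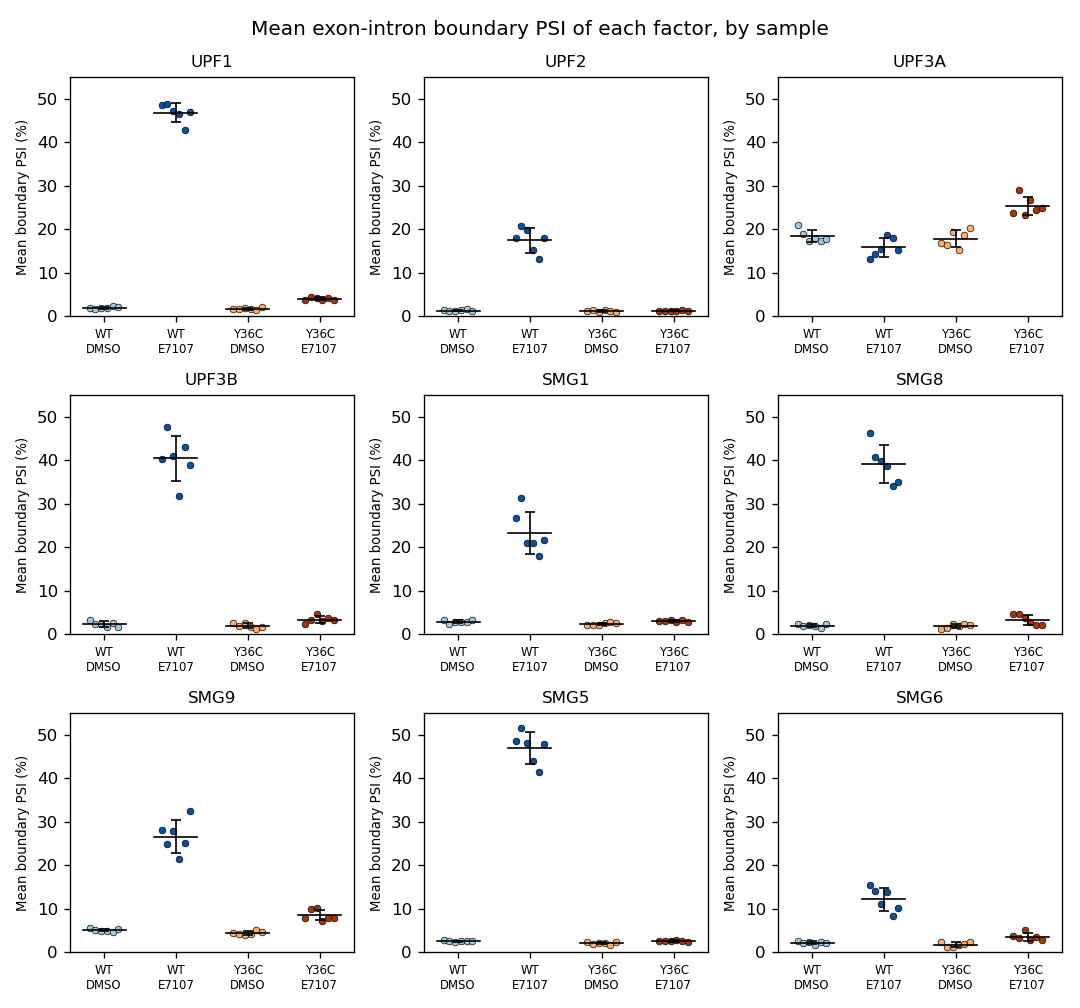
Mean exon-intron boundary PSI (%) of each NMD factor on the vertical axis, by group on the horizontal axis. Points are single samples, horizontal lines the mean of 6 samples and bars the SD. WT E7107 stood above the other groups for every factor except UPF3A, whose highest values were in Y36C E7107 (23.4 to 29.1%).

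Without the drug no factor passed the test between the genotypes. In DMSO, 0 of 9 gene means were called by limma, against 0.707% of all genes, with 3 at an unadjusted p under 0.05 and a smallest adjusted p of 0.173 (SMG5, 2.59% ± 0.15 in WT and 2.13% ± 0.25 in Y36C, SD, n = 6). No boundary row of 126 tested (0.369% of all boundary rows) and no spliced row of 423 (0.242% of all spliced rows) was called either, with 15 and 34 at an unadjusted p under 0.05.

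UPF1 (ENSG00000005007, chr19:18942768-18979039, plus strand), the central helicase, had the largest rise of the 9 factors in WT cells, followed by SMG5. Its mean boundary PSI over 47 boundaries was 1.67, 2.04 and 2.32% (lowest, median and highest sample) in WT DMSO and 42.8, 47.1 and 48.9% in WT E7107. The Y36C samples were at 1.59, 1.73 and 2.16% in DMSO and 3.70, 4.05 and 4.49% under E7107. The groups did not overlap in either genotype. The change was 44.8 points in WT (3.37 ± 0.05 on the natural-log odds scale, SE, adjusted p = 3.32e-14, limma) and 2.24 points in Y36C (0.61 ± 0.05, adjusted p = 7.85e-07), and the difference between them was -42.6 points (adjusted p = 4.94e-20).

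Retention in UPF1 was spread along the whole transcript. All 23 introns of its reference transcript rose at both boundaries in WT, to means between 32.7 and 62.4%. Of the 90374 reference introns of all protein-coding genes with values, 45.6% were called higher at a boundary or both. Intron 13 (chr19:18967110-18967685, 576 bases) had the largest change, from 0.327, 1.63 and 2.58% (lowest, median, highest) to 51.6, 63.7 and 71.8%, followed by intron 1, the longest with 13539 bases, from 0.649, 1.84 and 5.22% to 54.7, 59.2 and 69.9%. In Y36C the same introns were at 6.27, 8.95 and 10.5% and at 0.833, 1.61 and 6.14% under E7107. For intron 13 this was above Y36C DMSO (1.25, 2.04 and 3.84%) with no overlap, and both boundaries were called (adjusted p = 0.000503 and 0.0078). Intron 1 overlapped with its control in Y36C (0, 0.379 and 1.92%), and its 3′ boundary was not called there (adjusted p = 0.0774). In Y36C the largest changes were in intron 7, described below with exon 7, and in intron 15, from 1.43, 2.53 and 3.87% to 7.85, 9.25 and 11%. The group values of intron 15 did not overlap, and both of its boundaries were called in Y36C (adjusted p = 0.00269 and 0.00019). An offset of 0.1 points in the log odds ended the Y36C call at the 3′ boundary of intron 13.

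Exon 7 of UPF1 has a pair of alternative donors, 33 bases (11 codons) apart, chosen here after their values were seen. Use of the downstream donor adds 11 residues to the regulatory loop of the helicase core, and it defines intron 7 of the reference transcript, which had the highest boundary PSI of UPF1 in WT DMSO. The stretch is shown on GRCh37 with the bases between the donors in capitals. The upstream intron starts with the first capital, the downstream intron with the first small letter after the capitals.
UPF1 exon 7 donors, chr19:18963861-18963933, plus strand: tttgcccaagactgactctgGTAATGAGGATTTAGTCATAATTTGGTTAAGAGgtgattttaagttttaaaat
At the shared acceptor, the junction from the upstream donor took 77.6, 83.6 and 88.4% of reads in WT DMSO and 38.9, 51.3 and 60% in WT E7107, a fall of 33.8 points (adjusted p = 8.66e-06). In Y36C it took 77.1, 78.6 and 81.8% in DMSO and 76.9, 81.6 and 83.0% under E7107 (adjusted p = 0.352). The drop in WT was therefore outside the range of all other groups. Among reads spliced from either donor, the downstream donor had a share of 11.6, 13.9 and 20.2% in WT DMSO, 5.26, 16.0 and 28.2% in WT E7107, 14.8, 19.7 and 20.3% in Y36C DMSO and 13.9, 15.7 and 18.9% in Y36C E7107, and these ranges overlapped. Boundary reads of intron 7 went from 6.03, 8.56 and 12.3% to 51.8, 56.7 and 65.5% in WT and from 1.03, 5.58 and 10.4% to 8.44, 13.3 and 16.9% in Y36C. The rise in Y36C was at its 5′ boundary, 14.4 points against 0.78 at the 3′ boundary. That call (adjusted p = 0.0482) was lost with an offset of 0.1 points or without the filter on low PSI.

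Exon skipping in UPF1 was small. Skipping of exon 14 was 0, 0.228 and 1.06% at the acceptor in WT DMSO, 0 in all WT E7107 samples, 0, 0.272 and 0.606% in Y36C DMSO and 0.546, 2.79 and 4.60% in Y36C E7107. Only the last group had the junction in every sample, so the filter, which asks for a PSI above 0 throughout a group, let the row in through the group where it was high. Tested without that filter, the rise in Y36C was called (adjusted p = 0.0161), as was its difference from WT (adjusted p = 0.000439). Skipping of exon 23 went the other way: it was 0 in all samples of WT DMSO and of both Y36C groups, and 1.19, 1.65 and 4.23% in WT E7107 (adjusted p = 9.41e-05 without the filter).

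UPF2 (ENSG00000151461, chr10:11962021-12085169, minus strand), the adaptor that joins UPF1 to UPF3, was the factor whose mean boundary PSI did not pass the test in Y36C. It was 1.16, 1.36 and 1.60% in WT DMSO and 13.2, 18.0 and 20.8% in WT E7107, with no overlap and a change of 16.2 points (adjusted p = 5.02e-11). Y36C samples had 1.02, 1.27 and 1.39% in DMSO and 1.18, 1.29 and 1.47% under E7107. These overlapped, with a difference of 0.03 ± 0.04 on the natural-log odds scale (SE, adjusted p = 0.62). Intron 3 (14560 bases) stood out in WT, moving from 1.92, 2.85 and 4.41% to 36.5, 45.9 and 72.2%, and intron 2 came next, from 0, 0 and 3.45% to 8.70, 27.3 and 39.5%. Neither overlapped with its control. In Y36C E7107 intron 3 was at 2.94, 5.32 and 8.29%, against 1.64, 2.83 and 3.79% in DMSO (adjusted p = 0.209 at its 5′ boundary), and intron 4 was at 0, 1.64 and 2.21% against 0 in all DMSO samples. Intron 21, the highest in WT DMSO at 4.29, 7.52 and 12.7%, reached 19.4, 27.2 and 46.7% in WT E7107, and its 5′ boundary was called (adjusted p = 0.0012). It was at 1.34, 5.74 and 10.4% in Y36C DMSO and 2.09, 3.75 and 7.34% in Y36C E7107, which overlapped.

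UPF3B (ENSG00000125351, chrX:118967985-118986961, minus strand), the X-linked member of the UPF3 pair, also rose strongly in WT. Its mean over 16 boundaries was 1.62, 2.50 and 3.41% in WT DMSO and 31.9, 40.7 and 47.7% in WT E7107, a change of 38.1 points (adjusted p = 7.37e-11). In Y36C it was 1.20, 1.87 and 2.66% in DMSO and 2.38, 3.36 and 4.58% under E7107, a change of 1.43 points (adjusted p = 0.00598) with overlapping samples. Introns 5 and 9 changed most in both genotypes. Intron 5 went from 1.11, 3.64 and 5.95% to 35.7, 64.2 and 84.5% in WT and from 0, 0.41 and 1.00% to 1.00, 4.39 and 10.9% in Y36C. Intron 9 went from 2.36, 5.08 and 6.66% to 49.1, 53.0 and 77.5% in WT and from 3.40, 7.34 and 10.2% to 10.2, 15.4 and 19.5% in Y36C, where the samples stood close without overlap and its 5′ boundary was called (adjusted p = 0.0116). Of the 10 introns, 3 lacked reads in some samples and have no value.

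Exon 8 of UPF3B, 39 bases or 13 codons long, was skipped in most reads at its flanking sites without the drug, and its skipping junction was the called exon-skipping change of the gene in WT. The exon is shown on GRCh37 with 40 intron bases before and 20 after it, exon in capitals.
UPF3B exon 8, chrX:118974589-118974687, minus strand: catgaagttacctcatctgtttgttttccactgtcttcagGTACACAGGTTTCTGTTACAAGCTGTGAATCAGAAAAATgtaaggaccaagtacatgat
At the acceptor the skipping junction took 86.3, 90.6 and 91.7% in WT DMSO and 40, 58.6 and 66.7% in WT E7107, a fall of 34.8 points with no overlap (adjusted p = 6.29e-06). In Y36C it took 77.6, 86.6 and 93.5% in DMSO and 85.0, 92.0 and 93.8% under E7107, which overlapped (adjusted p = 0.277), and the change differed between the genotypes (adjusted p = 2.04e-06). The boundary reads at the same acceptor enter this share, and all 10 UPF3B boundary rows tested in WT were called higher. The share among spliced reads was not computed, so the fall does not show less skipping among them. At the donor the skipping junction took 86.2, 90.6 and 93.2% in WT DMSO and 33.3, 54.2 and 90.9% in WT E7107. These groups overlapped, with a fall of 29.8 points (adjusted p = 0.00463). In Y36C the called change was the skipping of exon 3 (107 bases), which shifts the reading frame: it was 0 in all DMSO samples and 2.94, 5.21 and 7.69% under E7107 at the donor (adjusted p = 3.40e-05 without the filter, which the row passed through E7107 alone). In WT it was 0, 0 and 5.56% in DMSO and 0, 6.25 and 37.5% under E7107, and the difference between the genotypes was not called (adjusted p = 0.744 without the filter).

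UPF3A (ENSG00000169062, chr13:115047076-115071292, plus strand), the paralogue of UPF3B, was the factor that did not rise in WT and rose by the most points in Y36C. It had the highest mean boundary PSI of the 9 without the drug, 17.3, 17.9 and 20.9% in WT DMSO and 15.3, 17.8 and 20.3% in Y36C DMSO, over 18 boundaries. Under E7107 it was 13.3, 15.4 and 18.7% in WT, which overlapped with WT DMSO, and 23.4, 24.7 and 29.1% in Y36C, above every sample of the other groups. The change was -2.56 points in WT (-0.18 ± 0.07 on the natural-log odds scale, SE, adjusted p = 0.038) and 7.53 points in Y36C (0.43 ± 0.07, adjusted p = 0.000207). Their difference was 10.1 points (adjusted p = 6.74e-06). The annotation lists 3 pseudogenes named after UPF3A, and how reads shared with them were assigned is not given in the sources used here, so these levels are uncertain.

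Its introns did not move together. In WT, 1 of 9 introns was called higher and 3 lower at a boundary or both, and in Y36C 5 were called higher by limma and none lower. Over the reference introns of all protein-coding genes, 45.6% were called higher and 4.32% lower in WT, and 15.8% and 0.682% in Y36C. Intron 2 rose in WT from 18.1, 25.0 and 40.9% to 31.9, 45.4 and 61.1%, with an overlap, and the call was at its 5′ boundary (33.5 points, adjusted p = 0.000566). In Y36C it went from 23.9, 30.5 and 40.8% to 34.1, 43.7 and 49.1%, with the call at the 3′ boundary (adjusted p = 0.0297). Intron 7 (7047 bases), picked after its values were seen, fell in WT from 21.8, 29.2 and 31.3% to 0, 5.40 and 16.7% without overlap, by 43.8 points at its 3′ boundary (adjusted p = 0.000206). It was 20.5, 22.8 and 36.6% in Y36C DMSO and 16.2, 23.4 and 28.1% in Y36C E7107. Intron 6, with 89 bases the shortest, parted by genotype: it was 5.00, 12.8 and 20.6% in WT DMSO, 0, 2.27 and 12.5% in WT E7107, 8.97, 11.5 and 16.6% in Y36C DMSO and 9.54, 31.1 and 41.4% in Y36C E7107. It fell at the 3′ boundary in WT (adjusted p = 0.0391) and rose at the 5′ boundary in Y36C (adjusted p = 0.0166). Its change differed between the genotypes at both boundaries (adjusted p = 0.000299 and 0.00426). The 5′ boundary row passed the filter on low PSI only through Y36C E7107, the group where it was high, so its calls are a description. Intron 3, the highest in WT DMSO at 19.1, 36.2 and 41.7%, was 27.8, 33.9 and 35.4% in WT E7107, and 27.6, 35.8 and 44.3% in Y36C DMSO against 41.2, 49.5 and 60.9% in Y36C E7107, with the rise called at its 5′ boundary (adjusted p = 0.00779). Intron 1, the richest in G and C of all introns examined at 77.0%, was at 17.4, 30.5 and 38.9% in WT DMSO and 25.8, 29.9 and 37.7% in WT E7107. In Y36C it was at 23.3, 29.6 and 39.2% in DMSO and 35.7, 45.0 and 52.6% under E7107 (adjusted p = 0.0472 at its 3′ boundary). The Y36C calls of introns 1 and 2 at their 3′ boundaries and the WT call of intron 6 were lost without the filter on low PSI.

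Exon 6 of UPF3A, between introns 5 and 6, had the largest called change of skipping of the gene in Y36C, and it is shown on GRCh37 in capitals with 40 intron bases before and 20 after it.
UPF3A exon 6, chr13:115056924-115057039, plus strand: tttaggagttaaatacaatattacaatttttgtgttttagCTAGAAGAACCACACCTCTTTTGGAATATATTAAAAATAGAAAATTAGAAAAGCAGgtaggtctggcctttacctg
The skipping junction was at 1.85, 3.29 and 9.52% of reads at the donor in WT DMSO, 0, 0 and 20% in WT E7107, 0, 3.54 and 7.55% in Y36C DMSO and 2.44, 19.8 and 34.8% in Y36C E7107. The rise in Y36C was 16.0 points (adjusted p = 0.0316) and the difference from WT 16.3 points (adjusted p = 0.0107). The 56-base exon is not a multiple of 3, and in the frame of the reference transcript its loss brings a stop after 250 of 476 codons, 493 bases before the last exon junction. Exon 4 (99 bases, 33 codons), the known alternative exon that lies in the UPF2-binding region, was skipped at the acceptor in 13.1, 21.2 and 26.4% of reads in WT DMSO, 9.52, 21.1 and 39.3% in WT E7107, 13.2, 18.9 and 25.0% in Y36C DMSO and 6.25, 11.1 and 21.0% in Y36C E7107. All 4 ranges overlapped, and the fall in Y36C (adjusted p = 0.0478) had no counterpart that passed the test in WT (adjusted p = 0.955), while the difference was not called (adjusted p = 0.139). Skipping of exons 3 and 4 together was 18.8, 23.0 and 26.5% at the donor in WT DMSO and 0, 9.55 and 20% in WT E7107 (adjusted p = 0.0293), and 7.50, 18.6 and 22.4% and 8.82, 12.7 and 31.6% in Y36C (adjusted p = 0.782). All 3 of these called changes lost the threshold with an offset of 0.1 points or without the filter on low PSI. At the other end of each junction the same change was not called. This was the acceptor for exon 6 in Y36C (adjusted p = 0.0581) and the donor for exon 4 in Y36C (adjusted p = 0.152). For exons 3 and 4 in WT it was the acceptor (-5.06 points, adjusted p = 0.209). The genotype difference for exon 6 was also called at the acceptor (adjusted p = 0.0172).

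In the kinase complex, SMG1 (ENSG00000157106, chr16:18816182-18937730, minus strand), SMG8 (ENSG00000167447, chr17:57286761-57292600, plus strand) and SMG9 (ENSG00000105771, chr19:44232135-44259114, minus strand) all rose in WT. SMG1, the kinase itself, has 63 exons and was at 2.51, 2.82 and 3.30% mean boundary PSI in WT DMSO and 17.9, 21.4 and 31.3% in WT E7107, and at 2.20, 2.42 and 2.74% and 2.85, 3.11 and 3.33% in Y36C. Neither pair overlapped, but the sizes were 20.4 points in WT (adjusted p = 1.197e-09) and 0.653 points in Y36C (adjusted p = 0.00213). SMG8, a regulatory subunit, was at 1.51, 2.01 and 2.31% in WT DMSO and 34.2, 39.4 and 46.3% in WT E7107 (adjusted p = 3.49e-12), and at 1.18, 2.10 and 2.40% and 2.07, 3.34 and 4.78% in Y36C, where the samples overlapped (adjusted p = 0.0285). SMG9, the partner of SMG8, was at 4.76, 5.13 and 5.55% in WT DMSO and 21.5, 26.5 and 32.5% in WT E7107 (adjusted p = 3.17e-10). In Y36C it went from 3.90, 4.36 and 5.07% to 7.31, 7.95 and 10.1%, a change of 4.09 points without overlap (adjusted p = 1.02e-05). Among the factors only UPF3A changed by more points in Y36C. The annotation lists 7 pseudogenes named after SMG1, which share sequence with it, and how such reads were assigned is not given in the sources used here.

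SMG1 retention varied strongly from intron to intron. All 62 introns had a higher mean under E7107 in WT, by 3.14 to 53.6 points, and 46 were called at a boundary or both, beside the 45.6% of all reference introns. Intron 18 had the largest change, from 1.09, 2.85 and 9.31% to 30.6, 58.5 and 78.5%, and intron 6 came next, from 0.694, 2.19 and 4.17% to 40.3, 48.1 and 65.5%. They did not overlap with their controls. In Y36C E7107 these introns were at 1.16, 3.41 and 11% and at 0.862, 2.37 and 4.10%. The largest changes in Y36C were in introns 44 and 37, short introns of 124 and 208 bases: intron 44 went from 2.76, 4.25 and 9.09% to 7.99, 10.9 and 13.5% and intron 37 from 0.562, 3.72 and 6.80% to 5.70, 8.93 and 13.7%, both with an overlap. In WT they reached 8.33, 34.6 and 51.1% and 28.2, 31.0 and 47.2%. Intron 17 (89 bases), the highest in WT DMSO at 9.67, 19.3 and 21.8%, was at 7.69, 29.8 and 46.7% in WT E7107 (adjusted p = 0.352 and 0.834 at its boundaries). In Y36C it was lower under E7107, 11.6, 14.1 and 17.4% against 16.3, 21.5 and 25.2% in DMSO (adjusted p = 0.0249 at the 3′ boundary), the one boundary of all factors called lower in Y36C. The calls of introns 17 and 37 in Y36C were lost without the filter on low PSI.

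Skipping of SMG1 exon 12 appeared under E7107 in both genotypes. The exon has 102 bases, 34 codons, and is shown on GRCh37 in capitals, with 40 intron bases before and 20 after, beside exon 6 of SMG9 and exon 11 of SMG5, the exons with the largest called change of skipping in Y36C of their genes.
SMG1 exon 12, chr16:18888433-18888594, minus strand: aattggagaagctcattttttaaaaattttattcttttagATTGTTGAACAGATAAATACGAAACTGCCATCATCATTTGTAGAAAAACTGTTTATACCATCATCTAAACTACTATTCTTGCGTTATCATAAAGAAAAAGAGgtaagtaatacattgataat
SMG9 exon 6, chr19:44248904-44249076, minus strand: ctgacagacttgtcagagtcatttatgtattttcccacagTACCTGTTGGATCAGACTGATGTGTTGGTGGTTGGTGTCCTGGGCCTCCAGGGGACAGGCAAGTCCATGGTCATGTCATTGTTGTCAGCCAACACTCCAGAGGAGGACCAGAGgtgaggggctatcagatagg
SMG5 exon 11, chr1:156236312-156236509, minus strand: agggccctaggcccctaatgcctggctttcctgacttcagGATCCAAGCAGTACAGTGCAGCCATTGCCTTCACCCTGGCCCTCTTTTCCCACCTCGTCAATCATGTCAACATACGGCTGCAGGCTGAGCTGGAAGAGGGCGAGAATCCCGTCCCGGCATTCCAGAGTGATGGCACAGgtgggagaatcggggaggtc
In SMG1 the skipping junction was 0 in all DMSO samples of both genotypes. It took 0, 22.5 and 30.8% of reads at the acceptor in WT E7107 and 2.13, 8.68 and 15.8% in Y36C E7107. Without the filter on low PSI, which the junction passed in Y36C through E7107 alone and did not pass in WT, the rise was called in Y36C (adjusted p = 0.000793 at the acceptor and 0.000272 at the donor) and in WT (adjusted p = 0.0035 and 0.00748). The difference between the genotypes was not called (adjusted p = 0.534 without the filter). In SMG9, skipping of exon 6 was at 2.20, 4.19 and 6.17% at the acceptor in WT DMSO, 0, 17.2 and 30.0% in WT E7107, 2.04, 5.01 and 6.49% in Y36C DMSO and 9.88, 14.5 and 21.6% in Y36C E7107. The Y36C groups did not overlap (10.02 points, adjusted p = 0.00169), the WT groups did (12.4 points, adjusted p = 0.214), and the difference between the changes was not called (adjusted p = 0.786). The 113-base exon is not a multiple of 3, and its loss brings a stop after 205 of 520 codons, 753 bases before the last exon junction.

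**Figure D2:**
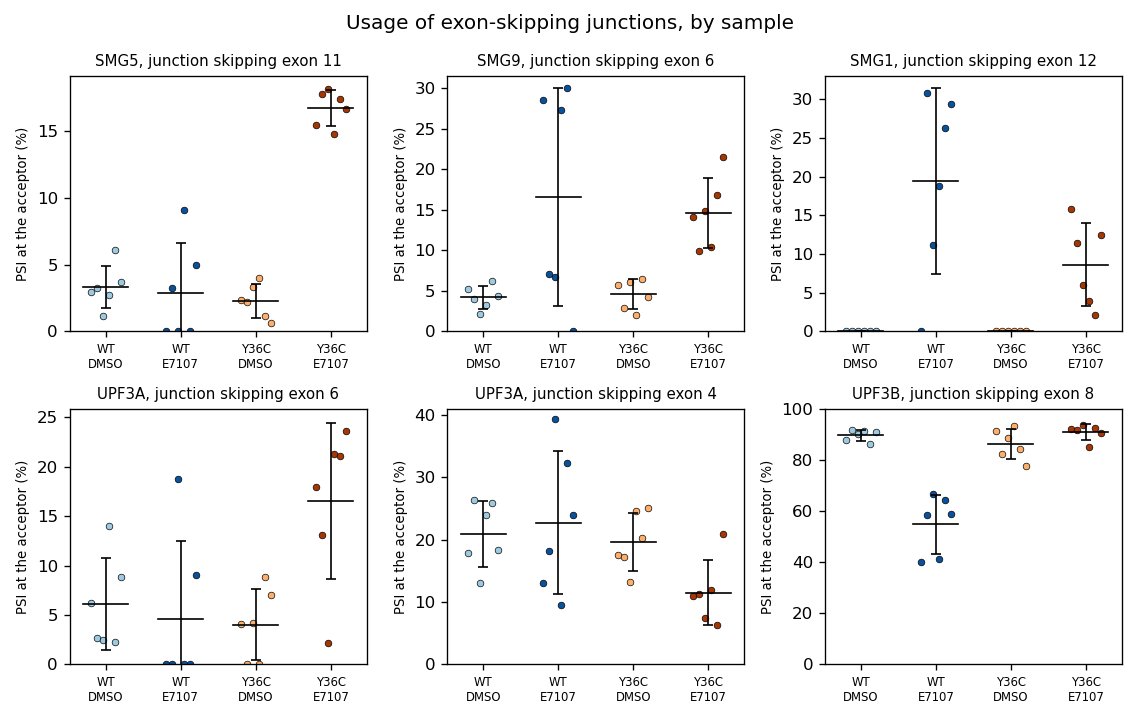
PSI at the acceptor (%) of 6 exon-skipping junctions on the vertical axis, by group on the horizontal axis. Points are single samples, lines the mean of 6 samples and bars the SD, and each panel has its own scale. SMG5 exon 11 stood apart in Y36C E7107 alone (14.8 to 18.1%), and SMG1 exon 12 was at 0 in every DMSO sample. The skipping junction of UPF3B exon 8 took a lower share in WT E7107 alone (40 to 66.7%), and boundary reads enter that share.

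Intron 9 of SMG9 had the highest mean of all introns of the 9 factors in WT E7107. It was at 19.04, 20.3 and 27.0% already in WT DMSO and at 16.8, 21.8 and 26.8% in Y36C DMSO. Under E7107 it reached 64.1, 77.2 and 88.6% in WT and 38.8, 45.6 and 51.2% in Y36C. The 2 E7107 groups overlapped with neither control nor with each other. Both boundaries were called in WT (adjusted p = 1.40e-06 and 2.95e-07), in Y36C (0.00171 and 2.02e-05) and in the difference between them (0.000165 and 2.42e-05). The next intron upstream, intron 8, was at 8.80, 11.1 and 16.5% and 19.5, 34.9 and 59.8% in WT and at 8.46, 11.5 and 12.1% and 12.4, 17.1 and 27.3% in Y36C, where it was not called (adjusted p = 0.0755 and 0.0726). Intron 4 of SMG9 (93 bases) had the second largest change in WT, from 1.11, 3.34 and 6.71% to 14.3, 30.3 and 46.3%, and was at 0.50, 2.15 and 4.87% and 1.12, 1.36 and 4.88% in Y36C. SMG8 has 4 introns, of which 3 have values. Its intron 4 rose most, from 2.68, 4.47 and 5.73% to 51.0, 64.2 and 76.1% in WT and from 1.47, 3.91 and 4.89% to 5.20, 7.45 and 12.7% in Y36C, with no overlap in either. Introns 2 and 3 of SMG8 reached 26.4, 30.2 and 36.6% and 15.6, 21.8 and 27.8% in WT E7107, and at most 2.78 and 1.04% in Y36C E7107.

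Of the decay effectors, SMG5 (ENSG00000198952, chr1:156219015-156252616, minus strand) rose nearly as much as UPF1, and SMG6 (ENSG00000070366, chr17:1963133-2207079, minus strand) had the smallest rise in points among the 8 factors that rose. SMG5, an adaptor of the decay step, was at 2.36, 2.59 and 2.78% mean boundary PSI in WT DMSO and 41.5, 48.0 and 51.6% in WT E7107, a change of 44.4 points (3.19 ± 0.06 on the natural-log odds scale, SE, adjusted p = 2.12e-13). In Y36C it was at 1.81, 2.13 and 2.49% in DMSO and 2.43, 2.67 and 2.93% under E7107, a change of 0.543 points with an overlap (adjusted p = 0.00633). The genotypes thus differed by -43.8 points in their response (adjusted p = 5.97e-20). SMG6, the endonuclease, was at 1.67, 2.21 and 2.71% and 8.38, 12.5 and 15.4% in WT (adjusted p = 2.90e-08) and at 1.21, 1.73 and 2.40% and 2.83, 3.45 and 5.24% in Y36C (adjusted p = 0.00113). Neither pair overlapped, and the changes of 9.97 and 1.84 points differed (adjusted p = 3.79e-06).

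All 21 introns of SMG5 were called higher at both boundaries in WT, beside 45.6% of all reference introns at a boundary or both. The changes in SMG5 were 31.6 to 55.1 points. The largest changes were in intron 17, from 0.338, 0.632 and 1.47% to 47.5, 55.7 and 67.7%, and in intron 2, from 0, 1.06 and 1.86% to 42.3, 53.7 and 75.0%. In Y36C E7107 these were at 0, 1.37 and 2.77% and at 0.303, 1.21 and 2.50%, against 0, 0.978 and 1.79% and 0, 0.181 and 0.877% in Y36C DMSO, which overlapped. Intron 20, the highest of the gene in WT DMSO at 16.97, 22.2 and 24.5%, reached 40.7, 68.4 and 77.1% in WT E7107. In Y36C it was at 16.1, 22.9 and 25.2% in DMSO and 12.7, 18.6 and 21.0% under E7107, an overlap with no call (adjusted p = 0.374 and 0.286). Like intron 9 of SMG9 it was partly retained without drug, yet in Y36C the SMG9 intron was called higher and the SMG5 intron was not. The largest changes of SMG5 in Y36C were in intron 11, from 0, 1.30 and 3.82% to 2.68, 4.68 and 5.70%, and intron 21, from 0.394, 0.982 and 1.66% to 1.46, 2.61 and 3.81%. Both overlapped with DMSO, and the calls (adjusted p = 0.0248 and 0.038 for intron 11, and 0.0391 at the 3′ boundary of intron 21) were lost without the filter on low PSI.

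The 3′ ends of these introns are shown because SF3b, which E7107 binds, acts at the branch site near the 3′ end of the intron. The last 60 intron bases are in lower case and the first 10 exon bases in capitals (GRCh37). Shown are the introns with the largest change in WT of SMG5, UPF1 and UPF3B, and the pair retained without drug. Intron 4 of SMG8, with a change of 60.4 points in WT, is not shown.
SMG9 intron 9, chr19:44238638-44238707, minus strand: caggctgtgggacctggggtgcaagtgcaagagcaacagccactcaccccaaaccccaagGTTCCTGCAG
SMG5 intron 20, chr1:156220778-156220847, minus strand: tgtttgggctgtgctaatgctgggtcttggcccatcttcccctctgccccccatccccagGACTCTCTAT
SMG5 intron 17, chr1:156222860-156222929, minus strand: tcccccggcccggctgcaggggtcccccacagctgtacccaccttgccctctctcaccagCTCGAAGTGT
UPF1 intron 13, chr19:18967626-18967695, plus strand: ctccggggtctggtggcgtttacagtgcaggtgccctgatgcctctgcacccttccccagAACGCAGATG
UPF3B intron 5, chrX:118975732-118975801, minus strand: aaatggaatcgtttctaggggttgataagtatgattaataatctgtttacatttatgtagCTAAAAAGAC
Of the last 20 intron bases, 12 were pyrimidines in SMG9 intron 9 and UPF3B intron 5, 15 in SMG5 intron 17 and UPF1 intron 13, and 16 in SMG5 intron 20, beside a median of 14 and a range from 8 to 18 over the 181 reference introns. The introns with the largest change in WT of SMG5, UPF1 and UPF3B thus lay on both sides of this median.

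Exon 11 of SMG5, shown above, was skipped mainly in Y36C E7107. At the acceptor the skipping junction was at 1.18, 3.11 and 6.06% in WT DMSO, 0, 1.61 and 9.09% in WT E7107, 0.61, 2.25 and 4.02% in Y36C DMSO and 14.8, 16.99 and 18.1% in Y36C E7107. The last group lay above all others. The change was 14.4 points in Y36C (adjusted p = 2.93e-05) and -0.426 in WT (adjusted p = 0.403), and it differed by 14.9 points (adjusted p = 0.000299). The exon has 138 bases, 46 codons, and its loss keeps the reading frame. In WT E7107 the flanking intron 11 was retained at 34.4, 48.3 and 56.8%.

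SMG6 spans the longest stretch and holds the longest introns of the set, up to 86756 bases. In WT its introns 1 and 8 changed most: intron 1 went from 3.85, 8.58 and 19.8% to 16.7, 32.6 and 66.7% and intron 8 (37927 bases) from 0, 4.72 and 7.35% to 16.7, 25.0 and 33.3%. Intron 1 overlapped and intron 8 did not. In Y36C, intron 1 went from 2.63, 8.46 and 17.2% to 9.01, 19.01 and 34.8% and intron 18 from 0.833, 3.29 and 7.97% to 2.38, 9.25 and 13.04%, with an overlap and no call at the boundary tested in either (adjusted p = 0.132 and 0.548). Of the 17 introns with values, 2 were called higher in WT and 0 in Y36C (limma), beside 45.6 and 15.8% of all reference introns. Only 2 SMG6 boundary rows entered the test in WT, and both were called. In Y36C 4 SMG6 boundary rows entered, of which 1 had an unadjusted p under 0.05. Intron 10, chosen after its values were seen, was at 0 in all E7107 samples of both genotypes. The lowest change of any SMG6 intron in WT was -2.15 points, so this 0 lies near the floor at unknown read depth.

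Counted row by row, 196 of the 225 boundary rows tested in WT were higher under E7107 and 4 lower, where 70.9% of all boundary rows were higher and 5.78% lower. Of 407 spliced rows 255 were lower and 10 higher, where 39.0% of all spliced rows were lower and 7.32% higher. Testing required a PSI above 0 throughout one group, so a row could enter only through the group in which it was high, and these counts are a description. Without that filter 224 of 360 boundary rows were higher in WT, beside 83477 of 206147 boundary rows over the whole table. In Y36C 45 of 136 boundary rows were higher and 1 lower (27.5 and 1.43% of all boundary rows), and 63 of 425 spliced rows were lower and 27 higher (14.5 and 7.06% of all spliced rows). Between the genotypes under E7107, 192 of 226 boundary rows were lower in Y36C and 7 higher (62.9 and 11.7% of all), 264 of 410 spliced rows higher and 14 lower (38.4 and 11.8%), and 1 gene mean was higher and 8 lower (15.4 and 65.0%). The signed change (E7107 minus DMSO) was lower in Y36C for 185 of 235 boundary rows and higher for 6 (54.9 and 8.97%). For spliced rows it was higher in Y36C for 243 of 425 and lower for 11 (32.5 and 9.06%). Of these 243 rows 223 were junctions of reference introns. The median change of the spliced rows tested was -20.1 points in WT and -0.699 in Y36C, so a higher signed change mostly meant a smaller fall.

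By type of junction, the calls of the genotypes were as follows. In WT the junctions of reference introns lost reads in 245 of 356 tested rows and gained in 4, where 43.1% of such rows in all protein-coding genes lost and 4.26% gained. Skipping junctions in WT gained in 4 and lost in 5 of 24, where 32.4% gained and 15.2% lost in all genes. Boundary reads enter these shares, so a loss does not show less skipping among spliced reads. In Y36C reference introns lost reads in 61 of 360 rows and gained in 6 (17.2 and 0.851% in all genes), and skipping junctions gained in 17 of 30 and lost in 1 (50 and 2.03% in all genes). The losses at reference introns and the gains of skipping junctions in Y36C thus lay near the shares of all genes. The called skipping rows came from UPF1, UPF3A and UPF3B in WT, and from these genes, SMG1, SMG9 and SMG5 in Y36C. The difference of these counts was not tested.

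Across introns, the median change was 21.2 points in WT and 0.529 points in Y36C over the 176 of 181 reference introns with values in all samples. The mean was above DMSO for 168 introns in WT and 125 in Y36C, and the change in WT exceeded that in Y36C for 166. The 10 exceptions were 8 introns of UPF3A and 2 of SMG6. Intron GC content and the change had a Spearman's rho of 0.31 in WT and 0.31 in Y36C, and intron length and the change a rho of -0.19 and -0.05, over 176 introns that share genes, libraries and base composition. Within genes the relation with GC content was not uniform: in WT rho was -0.02 over the 13 introns of SMG9, -0.01 over the 23 of UPF1, 0.14 over the 21 of SMG5, 0.15 over the 62 of SMG1, 0.27 over the 21 of UPF2, 0.38 over the 17 of SMG6 and 0.45 over the 9 of UPF3A. In Y36C rho was -0.17 in UPF2, -0.10 in UPF1, -0.02 in SMG1, -0.01 in SMG9, 0.16 in SMG6, 0.22 in SMG5 and 0.38 in UPF3A. UPF3B and SMG8, with 7 and 3 introns with values, were not computed.

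**Figure D3:**
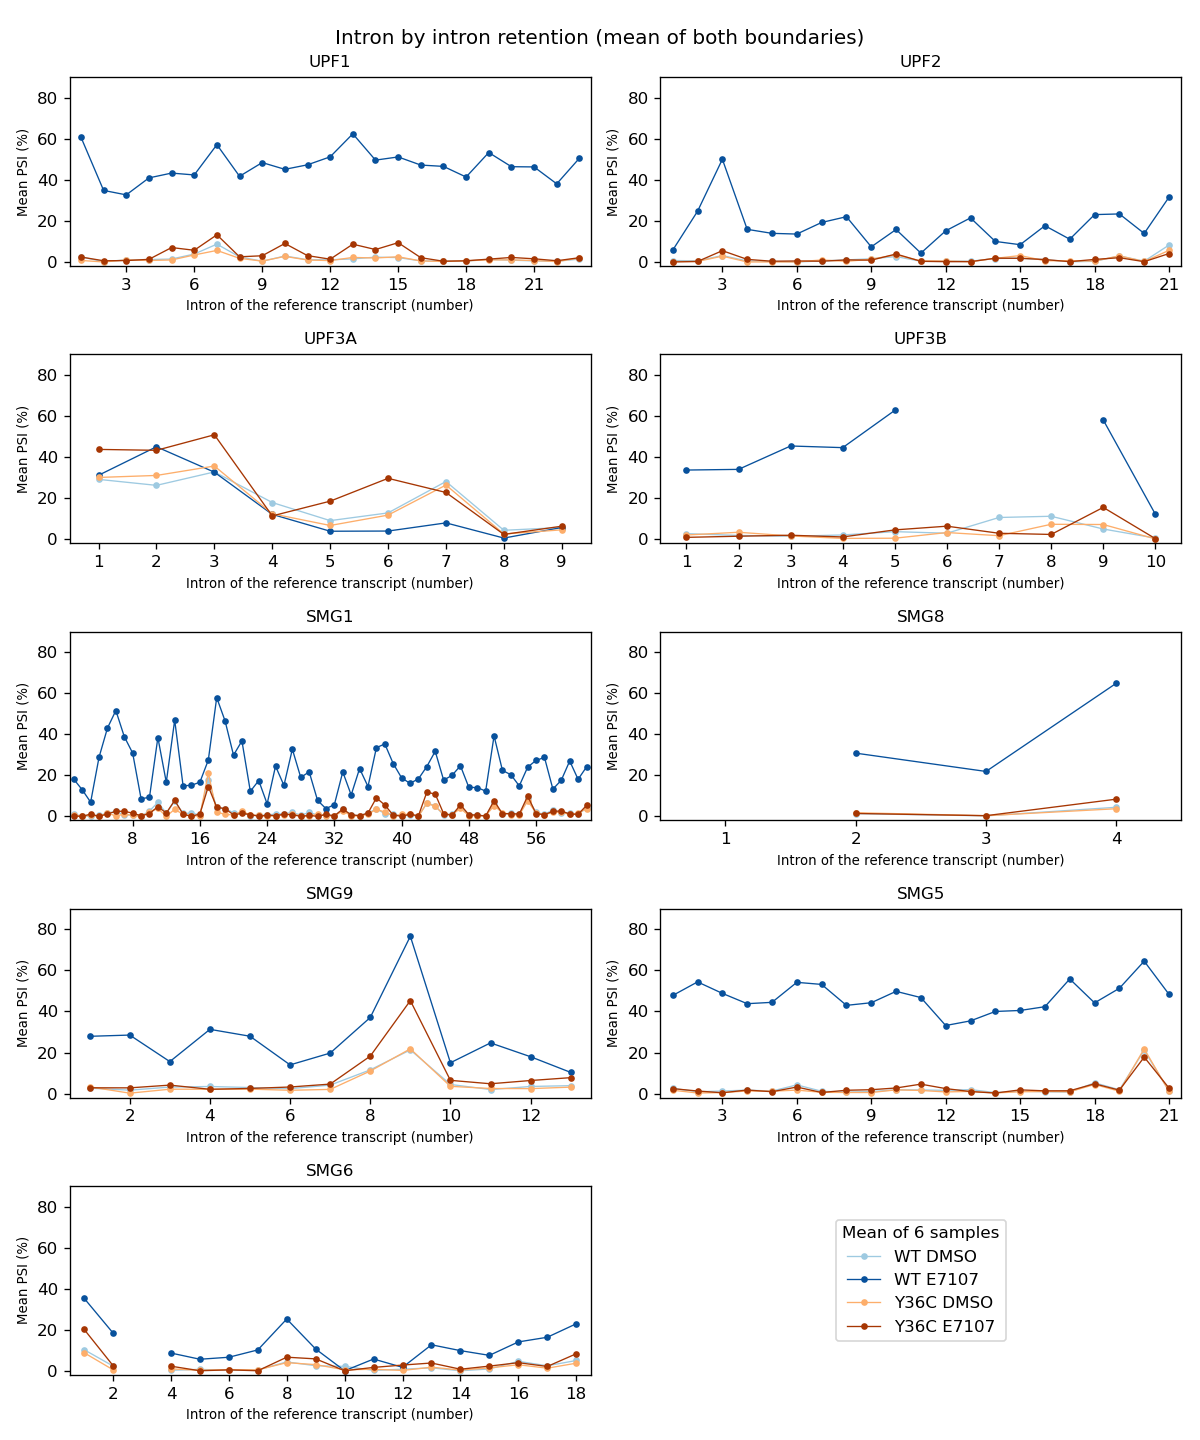
Mean PSI (%) of both boundaries for every intron of the reference transcripts on the vertical axis, against intron number from the 5′ end, by group (mean of 6 samples, gaps where reads were missing). WT E7107 ran above the other groups along UPF1 and SMG5, SMG9 showed its peak at intron 9 (76.6% in WT E7107), and the groups crossed in UPF3A.

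Read in the frame of the reference transcripts, retention of 170 of the 177 introns that lie within coding sequence would bring a stop codon inside the intron, at a median of 37 bases from its start. In 162 of them the stop would lie more than 50 bases before the last exon junction, the distance from which NMD is usually taken to act. The introns without a stop inside them were 3 of UPF1, 3 of SMG1 and 1 of SMG9. For introns 9, 10 and 21 of UPF1 and 17 and 44 of SMG1 the stop would lie beyond the intron. It would still be 197 to 8489 bases before the last exon junction. For SMG1 intron 43 and SMG9 intron 4 it would lie after that junction. Whether such transcripts were exported, translated or degraded was not measured.

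The wider pathway was followed in 19 further genes, of which 18 had a gene mean: exon junction complex members, cap-binding proteins, release factors and decay enzymes. In WT 16 of 18 rose and 0 fell, by -0.321 to 44.3 points with a median of 8.20, and in Y36C 8 rose and 0 fell, by -1.28 to 1.71 points with a median of 0.541. Over all genes 72.5% rose and 7.67% fell in WT and 48.3% rose and 0.859% fell in Y36C, so the count in Y36C lay near that of genes at large. The change was smaller in Y36C for 15 of 18, beside 60.8% of all genes. DCP1A, a decapping activator, went from 0.846, 1.45 and 2.15% to 32.7, 49.8 and 54.5% in WT, and RNPS1, a splicing-dependent activator of NMD, from 18.4, 18.99 and 20.1% to 57.5, 60.7 and 64.4%. Neither overlapped, and neither was called in Y36C (adjusted p = 0.122 and 0.358). MAGOHB and RUVBL1 did not pass the test in WT (adjusted p = 0.837 and 0.605), and MAGOH, a core protein of the exon junction complex, rose by 0.972 points only. The components of the exon junction complex and its partners ranged from 0.287 points (MAGOHB) to 41.7 points (RNPS1) in WT. Unlike UPF3A, no gene of this list fell in WT or had a higher change in Y36C than in WT past the threshold.

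**Figure D4:**
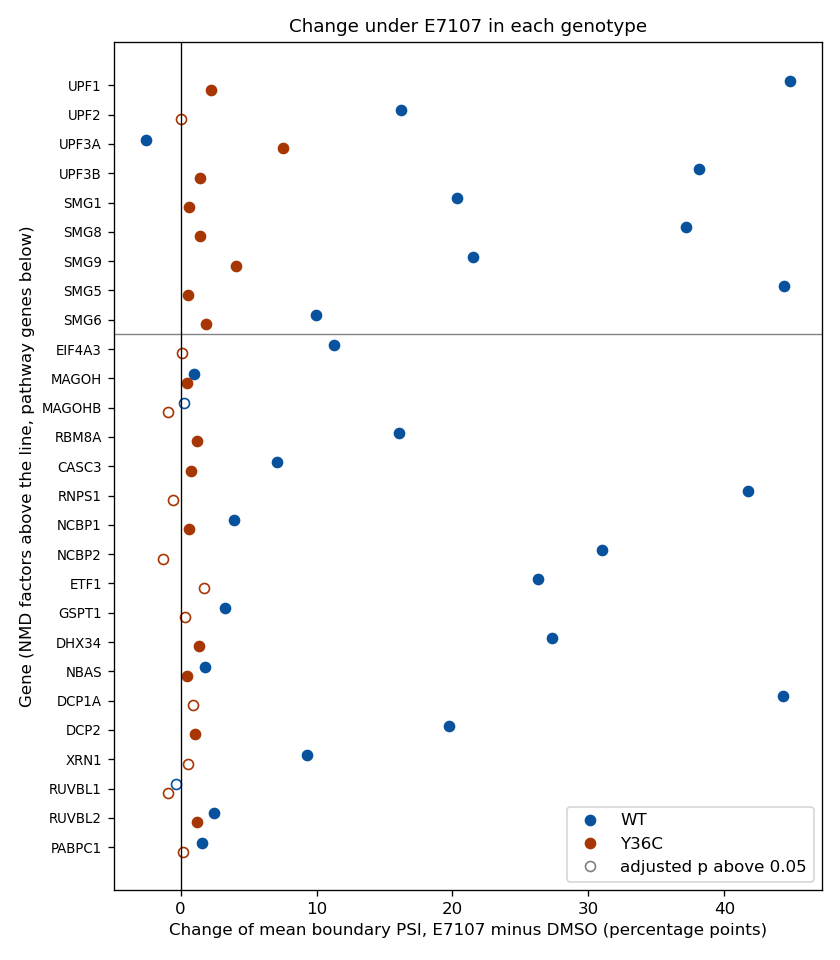
Change of mean boundary PSI under E7107 (percentage points, horizontal axis) in WT and Y36C for the 9 NMD factors and the 18 pathway genes (vertical axis). Open circles have an adjusted p above 0.05. The WT changes ran up to 44.8 points, the Y36C changes up to 7.53 points, and UPF3A was the gene with a called fall in WT, where its groups overlapped.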

How the data were processed

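RNA was poly(A) selected and sequenced by the authors, who used STAR and hg19 per the labels and deposited, for each of the 24 samples, a PSI in percent for every junction relative to all junctions sharing its splice site. Aligner version and strandedness are not given in the sources used here. At each site the deposited percent values added up to 100 or to 0, the latter being treated as missing. Left out were 6433 rows, mitochondrial or unstranded. Natural-log odds of PSI (offset 1 point) were tested with limma 3.58.1 in R 4.3.3, with Benjamini-Hochberg adjustment over all rows tested, or over 9895 protein-coding genes with at least 4 boundaries for gene means, at an adjusted p of 0.05. A row needed reads at its site in every sample compared and PSI above 0 in all 6 samples of a group. Reference transcripts (longest coding sequence, GENCODE lifted to GRCh37) gave introns and exons, and pysam 0.24.0 read the sequences. For each gene, the introns with the largest change of mean boundary PSI in each genotype, the highest in WT DMSO and the skipping junction with the largest called change are named, besides those said to be picked later. The members and lists were chosen with earlier results of these data known, and 1 listed pathway gene is not reported here. Replicate numbers did not pair samples. After the group mean of each row was removed, same-numbered samples of different groups correlated between -0.0055 and 0.0059. Differently numbered ones correlated between -0.0103 and 0.0059. Alternatives were a replicate block, an offset of 0.1, PSI in percent, no filter, a minimum change of 10 points and annotated boundaries.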

Additional observations from a re-analysis of the deposited data

Results flagged for a closer look

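In 14 of 253 groups of 6 values examined, 1 sample lay apart from the rest, where chance gives about 5% of groups. Replicate 3 of WT DMSO was high in UPF2 intron 2 at 3.45%, and replicate 4 of Y36C E7107 was high there at 1.43%. In UPF3B intron 5, replicate 3 of Y36C E7107 stood at 10.9%. In SMG1, replicate 4 of Y36C DMSO was high in intron 6 at 0.943% and replicate 2 of WT E7107 in intron 37 at 47.2%. In SMG9 intron 9, replicate 6 of WT DMSO was high at 27.0%, and in SMG6 intron 18, replicate 3 of WT E7107 was low at 0%. In UPF3A, skipping of exons 3 and 4 was low in replicate 2 of Y36C DMSO at the donor, 7.5%, and high in replicate 1 of Y36C E7107 at the acceptor, 21.8%, and skipping of exon 6 was high at the donor in replicate 3 of WT E7107, 20%. In UPF3B, skipping of exon 8 was low in replicate 4 of Y36C E7107, 85% at the acceptor and 84.0% at the donor, and skipping of exon 3 was high in replicate 4 of WT DMSO, 3.33% at the acceptor and 5.56% at the donor.

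The response to E7107 differed between the genotypes by the interaction term of the limma fit in the following values, each the change in Y36C minus the change in WT in percentage points. For mean boundary PSI it was -42.6 in UPF1, -16.1 in UPF2, 10.1 in UPF3A, -36.7 in UPF3B, -19.7 in SMG1, -35.7 in SMG8, -17.4 in SMG9, -43.8 in SMG5 and -8.13 in SMG6. UPF1 introns had a difference of -56.6 in intron 1, -40.8 in intron 7, -54.5 in intron 13 and -42.2 in intron 15. UPF2 introns had a difference of -24.1 in intron 2 (5′ boundary called only), -44.3 in intron 3 (5′ boundary called only) and -24.9 in intron 21 (5′ boundary called only). UPF3A introns had a difference of -6.55 in intron 2 (5′ boundary called only), 15.3 in intron 3 (5′ boundary called only), 26.8 in intron 6 and 16.5 in intron 7 (3′ boundary called only). UPF3B introns had a difference of -55.0 in intron 5 (5′ boundary called only) and -44.8 in intron 9. SMG1 introns had a difference of -46.9 in intron 6, -51.2 in intron 18, -24.3 in intron 37 and -20.4 in intron 44 (3′ boundary called only). SMG8 introns had a difference of -29.8 in intron 2, -21.6 in intron 3 and -55.7 in intron 4. SMG9 introns had a difference of -27.9 in intron 4 (3′ boundary called only) and -31.9 in intron 9. SMG5 introns had a difference of -52.6 in intron 2, -41.9 in intron 11, -54.6 in intron 17, -47.5 in intron 20 and -45.4 in intron 21. SMG6 introns had a difference of -18.2 in intron 8 (5′ boundary called only). For skipping of UPF1 exon 23 it was -1.64 at the donor and -2.17 at the acceptor. For skipping of UPF1 exon 14 it was 3.99 at the donor and 2.8 at the acceptor. For skipping of UPF3A exon 6 it was 16.3 at the donor and 14.0 at the acceptor. For skipping of UPF3B exon 8 it was 39.5 at the acceptor and 33.8 at the donor. For skipping of SMG5 exon 11 it was 14.9 at the acceptor and 16.2 at the donor. For use of the upstream donor of UPF1 exon 7 it was 26.1 at the donor and 35.7 at the acceptor. For use of the downstream donor of UPF1 exon 7 it was 45.4 at the donor.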

How the results depend on the processing

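Of 180 counts recomputed under the alternatives, 166 stayed within 1.5 times. The exceptions follow. Without the filter, spliced rows higher in WT numbered 17, boundary rows higher in Y36C 27 and lower 0. With a minimum change of 10 points, spliced rows higher in WT numbered 3, boundary rows in Y36C 8 higher and 0 lower, spliced rows in Y36C 6 higher and 17 lower, spliced rows lower in Y36C than in WT under E7107 8, and those with a lower change in Y36C 6. With PSI in percent, 1 spliced row was higher in Y36C in DMSO, and 5 pathway genes rose in Y36C instead of 8. With a replicate block, 0 gene means were lower in WT (UPF3A, -0.18 on the natural-log odds scale, lost its call) and 0 boundary rows lower in Y36C (the 3′ boundary of SMG1 intron 17), and the rise of the SMG8 gene mean in Y36C (0.39) was not called. The block rests on numbers that do not pair samples, so a lost call is not a weaker effect. The cause of these shifts was not tested, except that a minimum change removes calls by construction. Of 1612 values for single genes, boundaries and junctions, 1542 kept direction and side of the threshold, 58 lost and 12 gained a call, and 0 reversed. Depth behind a PSI is unknown, and fewer sites had reads in WT E7107.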
